A study of Mus musculus with 24 samples.

Results

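The response of skeletal muscle to HSP990, an inhibitor of the chaperone HSP90, was compared between R6/2 and wild type mice as a difference of responses: for every gene, the log2 change from vehicle to HSP990 in R6/2 mice minus the log2 change from vehicle to HSP990 in wild type mice. A difference of responses is needed because R6/2 and wild type muscle already differed without the drug, and that difference cancels in the subtraction. The comparison rested on 8 of the 24 mice sequenced, those whose labels give the genotypes and treatments compared: 2 R6/2 mice with HSP990, 2 R6/2 mice with vehicle, 2 wild type mice with HSP990 and 2 wild type mice with vehicle. R6/2 mice carry a transgene with exon 1 of the human huntingtin gene and an expanded CAG repeat under the human huntingtin promoter, expressed beside the intact mouse gene, and are a model of Huntington's disease. All 8 mice were 12 weeks old on a mixed CBA x C57BL/6 background, and total RNA of the quadriceps femoris, a thigh muscle, was taken 4 h after treatment. Treated mice received 12 mg/kg HSP990, which the labels give as prepared with 0.2% methyl cellulose and 0.9% saline. Vehicle mice received 0.9% saline by gavage according to the labels, which name no methyl cellulose for them. With 2 mice in a group, p-values rested on a spread pooled over all 12 groups of the series.

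HSP90 is an abundant cytosolic chaperone that keeps heat shock factor 1 (HSF1) inactive. When HSP90 is inhibited, HSF1 is released, binds heat shock elements in DNA and raises the transcription of chaperones: HSP70s, which hold and refold unfolded protein, DNAJ proteins, which pass substrates to HSP70, small HSPs, which hold unfolded protein without ATP, and the chaperonins of cytosol and mitochondria. HSP90 also keeps the glucocorticoid receptor able to bind its hormone, and muscle needs HSP90 with UNC45B to fold myosin.

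The 8 libraries held between 22450177 and 35168663 gene counts, and CPM values below divide each count by the library's total after TMM, edgeR's correction for differences in RNA composition, and scale it up by the same constant in all libraries. Composition differed between the genotypes: the 20 most abundant genes took 32.7% to 35.0% of counts in wild type mice but 14.7% to 21.9% in R6/2 mice, and the TMM factors were 0.856 to 0.893 and 1.253 to 1.395. The 8 muscle fibre markers (Acta1, Ckm, Myh4, Mylpf, Tnnt3, Des, Ttn and Mb) were high in every library, none at 0, and summed to 212600 to 232600 CPM in wild type mice and to 47760 to 92520 CPM in R6/2 mice. Of the R6/2 mice, HSP990 mouse 1 stood highest for these genes and for the share of the top 20 genes. Because of the composition, levels between genotypes depended on the scaling, while the difference of responses did so little: its median over all genes moved from -0.001 with TMM to -0.111 by library size alone, against a move from 0.066 to 0.736 for vehicle R6/2 against vehicle wild type mice.

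The heat shock element that HSF1 binds is a run of inverted GAA units, and it was searched in the promoters of RefSeq (assembly GRCm38.p6, 250 bases before to 50 bases from the start on, 300 in all) as the exact letters GAA, TTC and GAA with any 2 letters between neighbouring units, and as the reverse complement of that on the same strand. The promoters of 3 chaperones that rose in both genotypes are printed because they hold it and because their responses ran from nearly equal in both genotypes (Chordc1) to lower in R6/2 mice (Hspd1). Each is given 5′ to 3′ on the strand of its gene, with the matching letters in capitals. The Hspd1 promoter (chr1:55087883-55088182, minus strand), the Hsph1 promoter (chr5:149636287-149636586, minus strand) and the Chordc1 promoter (chr9:18292017-18292316, plus strand) read:
Hspd1: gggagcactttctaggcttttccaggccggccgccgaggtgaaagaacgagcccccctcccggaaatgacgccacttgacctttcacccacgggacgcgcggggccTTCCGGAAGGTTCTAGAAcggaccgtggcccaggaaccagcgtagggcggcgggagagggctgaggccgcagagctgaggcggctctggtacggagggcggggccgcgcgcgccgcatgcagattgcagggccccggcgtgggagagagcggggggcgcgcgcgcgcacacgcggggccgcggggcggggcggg
Hsph1: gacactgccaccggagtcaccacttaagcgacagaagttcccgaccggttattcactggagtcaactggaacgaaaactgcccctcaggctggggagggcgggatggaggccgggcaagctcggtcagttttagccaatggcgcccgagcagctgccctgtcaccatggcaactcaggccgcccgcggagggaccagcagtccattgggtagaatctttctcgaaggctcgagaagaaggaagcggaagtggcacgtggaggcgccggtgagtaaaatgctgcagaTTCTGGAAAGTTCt
Chordc1: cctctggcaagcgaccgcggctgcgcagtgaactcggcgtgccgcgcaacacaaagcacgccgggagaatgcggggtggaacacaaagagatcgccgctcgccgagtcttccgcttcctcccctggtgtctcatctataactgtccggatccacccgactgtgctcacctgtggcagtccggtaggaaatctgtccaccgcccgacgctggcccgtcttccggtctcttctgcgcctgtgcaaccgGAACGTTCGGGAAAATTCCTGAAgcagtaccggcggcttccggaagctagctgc
Hspd1 held 2 overlapping matches in a run from 144 to 127 bases upstream of its start, in a stretch it shares with the divergent gene Hspe1, whose window on the opposite strand overlaps it. Hsph1 held 1 match within the transcribed bases of the window, and Chordc1 held 3 overlapping matches in a run of 23 letters that crosses the start. Such a match was rare among all promoters, in 179 of 27025 genes (0.662%), and was found in 4 of the 24 genes with a promoter (16.7%) among the chaperones that rose in wild type mice, and in 1 of 38 (2.63%) among the chaperones not called there. The 4 genes were Hspd1, Hspe1, Hsph1 and Chordc1, so that Hspd1 and Hspe1 were counted apart although their windows overlap. The exact search found 0 matches for Hspa1a, Hspa1b, Dnajb1, Hspb1, Dnaja1, Dnaja4, Bag3 and Unc45b, all of which rose in wild type mice. Of the 48 genes with a promoter that fell in wild type mice and the 110 that fell in R6/2 mice, 0 held a match. A match describes letters only, and promoters such as that of Hsp90aa1 are not in the table.

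HSP990 changed 255 genes in wild type mice, 199 up (1.45% of the 13754 genes tested) and 56 down (0.407%), and 197 genes in R6/2 mice, 65 up (0.473%) and 132 down (0.96%), at an adjusted p under 0.05 by edgeR's quasi-likelihood test. Of these, 76 were called in both genotypes, 50 up, 26 down and 0 in opposite directions, which was 29.8% of the wild type calls and 38.6% of the R6/2 calls. A call in 1 genotype was not in itself a difference: of 179 genes called only in wild type mice 93 had an unadjusted p under 0.05 by edgeR in the difference of responses, and of 121 called only in R6/2 mice 61 did. Over all 13754 genes tested 981 did. Both sets were chosen on the responses that make up the difference, so a share above that of all genes was built in. The R6/2 count rested on the pooled spread, since with only the 4 R6/2 libraries fitted it was 8.

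The difference of responses itself was called for no gene after adjustment by edgeR (0%, 0 of 13754, lowest adjusted p 0.299), while 981 genes had an unadjusted p under 0.05, of which 658 were lower and 323 higher in R6/2 mice. DESeq2, the tool the study used, called 49 genes on the same 24 libraries: 42 with a lower response in R6/2 mice (0.305%) and 7 with a higher one (0.0509%). Without R6/2 vehicle mouse 1, edgeR called 10, among them Eln, Ccl9 and Slc29a2. No difference named hereafter passed edgeR's test on all mice, and where DESeq2 called one its adjusted p is given. The 42 held 7 chaperones of the 73 tested (Hsp90aa1, Dnaja1, Dnaja4, Bag3, Hspd1, St13 and Unc45b) and genes of macrophages and matrix (Lyz2, C1qa, Fcgr3, Ccl6, Ccl9, Eln). Among genes with a mean of at least 1 CPM the lowest unadjusted p by edgeR, 3.89e-05, was that of Nle1, which encodes a factor of ribosome assembly. Its levels were 10.6 and 10.7 CPM in vehicle and 200.5 and 257 CPM in treated wild type mice, and 8.56 and 7.85 CPM in vehicle and 46.9 and 65.96 CPM in treated R6/2 mice. The treated groups did not overlap, and the difference was -1.65 (95% interval -2.28 to -1.02, DESeq2 adjusted p = 0.0018). Nle1 (chr11:82714270-82721913, mm9, minus strand) lies 2139 bases from the chaperone gene Unc45b on the plus strand and shares 34 exon bases with Fndc8.

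**Figure D1:**
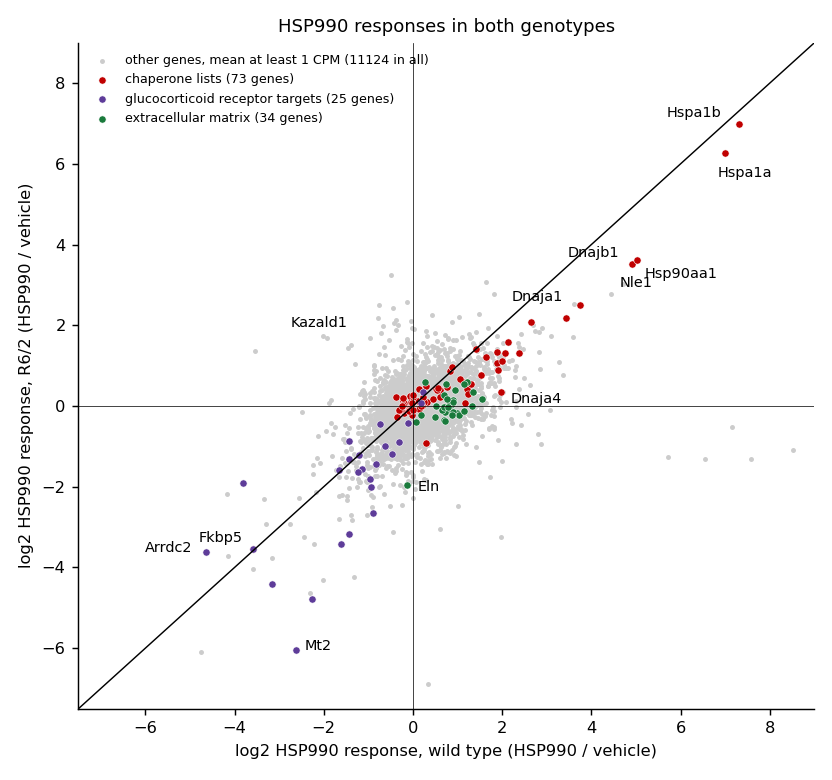
HSP990 response of each tested gene in R6/2 mice (y axis, log2 fold change) against wild type mice (x axis, log2 fold change), for genes with a mean of at least 1 CPM over the 8 mice, with 73 chaperones, 25 glucocorticoid receptor targets and 34 matrix genes coloured and the line of equal response drawn. Hsp90aa1, Dnajb1, Dnaja1 and Nle1 lie above 0 on both axes and below the line, most matrix genes lie right of 0 with an R6/2 response near 0, the glucocorticoid targets reach below -4 on both axes, and 5 grey points right of 5 on the x axis are genes near 0 CPM in some mice of a group.

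Chaperones rose in both genotypes, and most of those that rose in wild type mice rose less in R6/2 mice. Those were chosen on the wild type response, which is subtracted in the difference, so part of that was built in. Of 73 chaperones tested in 5 families, 27 rose and 1 fell in wild type mice, and 20 rose and 1 fell in R6/2 mice, the fall being that of Fkbp5 in either. The difference of responses was negative for 43 and positive for 30, and 16 had an unadjusted p under 0.05 with a lower and 3 with a higher response in R6/2 mice, against 4.78% and 2.35% of all genes. The responses of the treated mice did not overlap, R6/2 below wild type, for 31 of the 73, against 26.8% of all genes tested, and R6/2 above wild type for 14, against 25.7%. The median difference over the families was -0.104, against -0.001 over all genes, with members that did not respond counted too.

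Hsp90aa1, the stress-inducible form of HSP90 itself, was at 13.4 and 12.7 CPM in vehicle and 464 and 386 CPM in treated wild type mice. In R6/2 mice it was at 22.8 and 17.1 CPM with vehicle and 194 and 298 CPM with HSP990. The vehicle R6/2 mice were above both vehicle wild type mice and the treated R6/2 mice below both treated wild type mice, so that the order of the genotypes was reversed. The rise on the log2 scale, the scale of every response, gap and difference hereafter, was 5.02 ± 0.28 (SE, n = 2 against 2 mice) in wild type and 3.62 ± 0.26 in R6/2 mice, a difference of -1.40 (95% interval -2.10 to -0.70, DESeq2 adjusted p = 0.0219). The constitutive form, Hsp90ab1, was at 1947 and 1736 CPM and 3972 and 3654 CPM in vehicle and treated wild type mice and at 2057 and 2088 CPM and 2934 and 3664 CPM in the R6/2 mice. Treated mice of both genotypes overlapped at that gene, and the difference of -0.38 had an interval of -0.79 to 0.03.

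Of the 20 genes for HSP90 and its co-chaperones, 9 rose in wild type and 8 in R6/2 mice. The co-chaperone St13, which links HSP70 to HSP90, was at 89.6 and 87.2 CPM and 227 and 187 CPM in vehicle and treated wild type mice, and at 139 and 119 CPM and 145 and 171 CPM in R6/2 mice. All 4 treated mice lay above the vehicle mice of their genotype, but the R6/2 rise was 0.29 ± 0.15 against 1.23 ± 0.15, a difference of -0.94 (-1.38 to -0.49, DESeq2 adjusted p = 0.0219). Unc45b, the myosin co-chaperone of muscle, rose from 589 and 600.3 CPM to 2454 and 2535 CPM in wild type mice and from 338 and 381 CPM to 915 and 887 CPM in R6/2 mice. It was lower in R6/2 mice before and after treatment, with no overlap at either. Its difference of responses was -0.74 (-1.13 to -0.36, DESeq2 adjusted p = 0.0219).

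Other partners of HSP90 rose by like amounts in both genotypes. Ahsa1, which drives the ATPase of HSP90, rose by 0.87 ± 0.11 in wild type and 0.97 ± 0.11 in R6/2 mice, with a difference of 0.10 (-0.23 to 0.42). Fkbp4, an immunophilin of steroid receptor complexes, had a difference of 0.04 (-0.28 to 0.36), with 383 and 347 CPM in treated wild type and 282 and 252 CPM in treated R6/2 mice. Chordc1, whose promoter is printed above, rose from 69 and 69.6 CPM to 215 and 157 CPM in wild type and from 54.01 and 45.4 CPM to 119 and 145 CPM in R6/2 mice. Its difference of -0.01 had a wider interval, -0.78 to 0.75, so that a difference of the size seen at Unc45b lies just inside it. A difference as large as that of Hsp90aa1 lay outside the interval for all 3 genes.

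The inducible HSP70 genes Hspa1a and Hspa1b had the largest rises of the chaperones, and neither difference of responses was called by either tool. Hspa1b rose from 21.4 and 16.01 CPM to 3161 and 2787 CPM in wild type mice and from 8.46 and 4.78 CPM to 739 and 932 CPM in R6/2 mice. Both treated and both vehicle R6/2 mice lay below the wild type mice of the same treatment. The rises were 7.31 ± 0.57 and 6.97 ± 0.56, and the difference of -0.34 had an interval from -1.66 to 0.98. Its neighbour Hspa1a rose by 7.0 ± 0.62 and 6.26 ± 0.60, with 2950.3 and 2777 CPM in treated wild type and 573 and 725 CPM in treated R6/2 mice. The difference for Hspa1a was -0.74, with an unadjusted p of 0.295 by edgeR. Both genes are nearly identical in sequence, so how their reads were divided is uncertain. Hsph1, the exchange factor of HSP70 whose promoter is printed above, rose from 157 and 159 CPM to 779 and 605 CPM and from 137 and 139 CPM to 359.8 and 475 CPM. Its difference of -0.53 reached an unadjusted p of 0.0535. Of the 16 HSP70 family genes tested, 6 rose in wild type and 5 in R6/2 mice. Hspa1l, 1 of them, had a log2 difference of -0.87 between the vehicle groups. Its difference of responses of -0.82 had an unadjusted p of 0.0121 by edgeR and was called by neither tool.

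Among the 16 DNAJ genes, 4 rose in wild type mice and 2 of them in R6/2 mice. Dnajb1, the main partner of inducible HSP70, rose from 9.395 and 11.8 CPM to 327 and 315 CPM in wild type and from 11.4 and 9.33 CPM to 94.9 and 143 CPM in R6/2 mice. The vehicle groups overlapped while the treated groups lay far apart, and the difference of responses was -1.40 (-2.28 to -0.51, DESeq2 adjusted p = 0.135). Dnaja1, a farnesylated partner of HSP70, rose from 3.97 and 3.296 CPM to 54.5 and 43.5 CPM and from 4.83 and 4.16 CPM to 21.3 and 29.8 CPM, with a difference of -1.25 (-1.78 to -0.71, DESeq2 adjusted p = 0.0219). Dnaja4 was called only in wild type mice, where it rose from 187 and 134 CPM to 651 and 615 CPM. In R6/2 mice it was at 294 and 192 CPM with vehicle and 220.4 and 396 CPM with HSP990, so that treated mouse 1 lay within the range of the vehicle mice. The difference was -1.64 (-2.53 to -0.75, DESeq2 adjusted p = 0.0329). Dnaja1 and Dnaja4 share exon bases with Smu1 and Wdr61 on the opposite strand, 608 and 1581 bases at most, as Hspd1 and Hspe1 do with each other (112), and whether the counting used strand is not given in the sources used here.

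The small HSPs and Bag3, a co-chaperone that directs small HSPs and HSP70 to autophagy of damaged sarcomere proteins, held 3 genes that rose in wild type mice, of which 2 also rose in R6/2 mice. Bag3 rose from 351 and 292 CPM to 1682 and 1666 CPM in wild type mice and from 322 and 286 CPM to 622 and 893 CPM in R6/2 mice. The vehicle groups lay close together and the treated R6/2 mice reached about the midpoint between vehicle and treated wild type mice on the log2 scale. The rises were 2.38 ± 0.18 and 1.32 ± 0.17, a difference of -1.06 (-1.57 to -0.56, DESeq2 adjusted p = 0.0219). Hspb1 rose from 55.6 and 34.5 CPM to 435 and 536 CPM and from 58.4 and 39.6 CPM to 198 and 249 CPM, and its difference of -1.24 (-2.40 to -0.08) was not called by either tool. Hspb8, the partner of Bag3, was called only in wild type mice, with 1819.9 and 1763 CPM in treated wild type and 775 and 1048 CPM in treated R6/2 mice.

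The mitochondrial chaperonin pair, Hspd1 and its lid Hspe1, rose in both genotypes. Hspd1 was at 108 and 107 CPM and 342 and 279.8 CPM in vehicle and treated wild type mice, and at 74.7 and 64.5 CPM and 116 and 120.0 CPM in R6/2 mice. The treated R6/2 mice thus lay only a little above the vehicle wild type mice. Its difference of responses was -0.77 (-1.14 to -0.41, DESeq2 adjusted p = 0.0219), and that of Hspe1 was -0.88 (-1.45 to -0.32). Reads of Hsp90aa1, Hspb1, Hspd1 and Hspe1 could also map to processed copies elsewhere in the genome that differ by at most 2% of bases, so their counts are uncertain to that extent. The cytosolic chaperonin subunits Cct6a, Cct7 and Cct3 rose in wild type mice by 0.52, 0.75 and 0.60, and the intervals of all 3 differences of responses held 0.

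**Figure D2:**
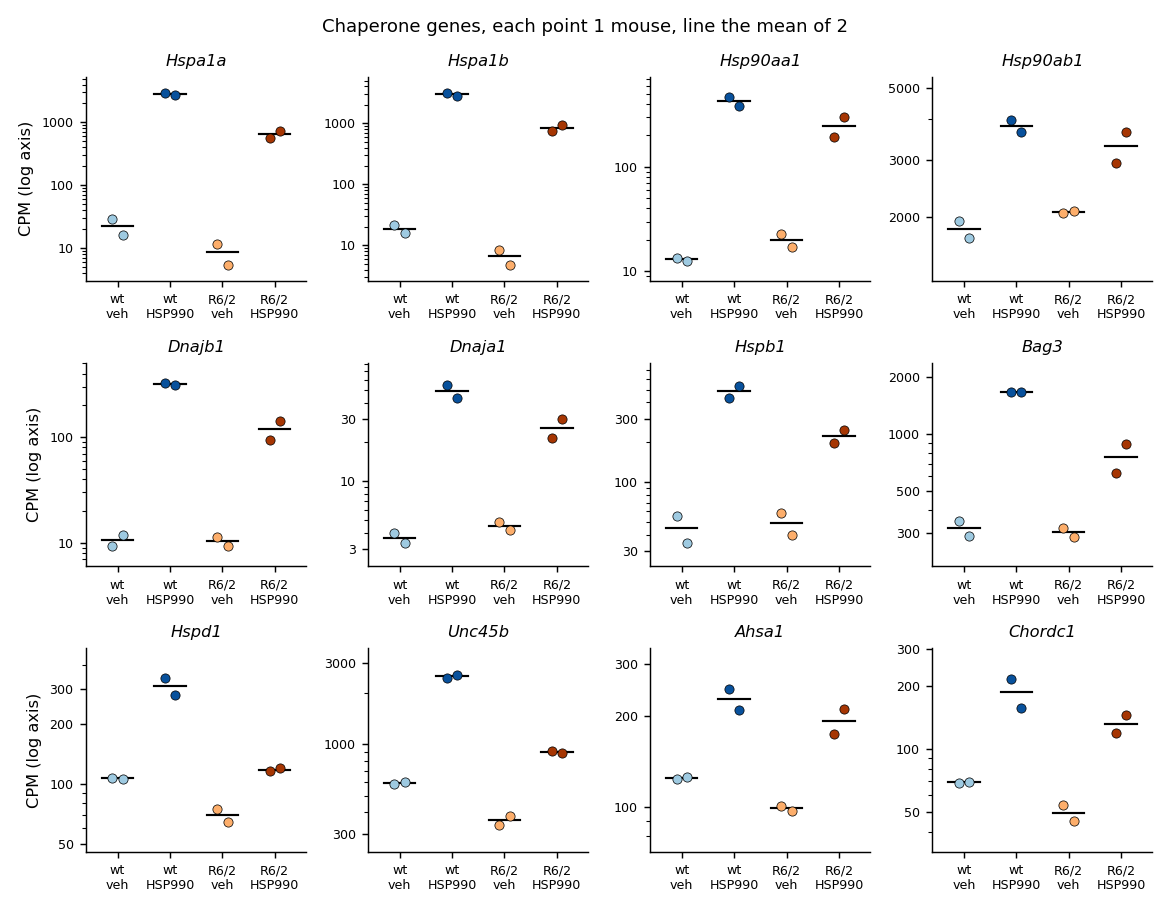
Level in CPM (log axis) of chaperone genes in each of the 8 mice, by genotype and treatment, with 2 points and a line at their mean in each group. Treated wild type points lie above treated R6/2 points for Hsp90aa1, Dnaja1, Dnajb1, Bag3 and Hspd1, the vehicle points of Dnajb1 and Bag3 overlap between genotypes, and those of Unc45b and Hspd1 are lower in R6/2 mice.

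Treated R6/2 mice had lower chaperone RNA than treated wild type mice for 22 of the 73 chaperones and higher for 0, against 5.29% lower and 4.25% higher among all genes. That gap is the sum, on the log2 scale, of the gap between vehicle mice and the difference of responses, and the chaperones divided in how much came from each. Both terms use the vehicle mice, with opposite sign, so they are not independent of each other. Of the 22 genes, 11 were already called lower between the vehicle groups, where 10.5% of all genes were lower and 8.72% higher. By edgeR 11 had an unadjusted p under 0.05 with a lower response, against 4.78% of all genes, and 3 had neither. The 22 were chosen on the treated gap, the sum of both terms, so low values in these terms were built in. The split between both terms depended on the scaling: by library size alone, which moved the median vehicle gap over all genes to 0.736, the vehicle gap was negative for 8 of the 22, against 19 with TMM, and the treated gap for 19. The calls depended on it too. By library size alone 4 of the 22 were called lower and 7 higher between the vehicle groups. Between the treated groups 9 were called lower and 0 higher on that scale. All gaps below are on the TMM scale, relative to a median near 0 over all genes.

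In Bag3 and Dnajb1 nearly the whole gap lay in the response. The gap after treatment was -1.14 for Bag3, of which -0.08 was there with vehicle and -1.06 was the difference of responses. For Dnajb1 it was -1.43, made of -0.04 and -1.40. In Hsp90aa1, Dnaja1 and Dnaja4 the vehicle R6/2 mice were on average above wild type, by 0.61, 0.31 and 0.60, none of them called, and the gap after treatment was smaller than the difference of responses. For Dnaja4 it was -1.04 against a difference of -1.64.

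In other chaperones the gap was there before the drug. Hspb6, a small HSP abundant in muscle, was at 1688 and 1429.6 CPM in vehicle and 1576 and 1556 CPM in treated wild type mice and at 492 and 443 CPM and 528 and 602 CPM in R6/2 mice. The genotypes were apart at either treatment and neither responded, so that a gap of -1.47 after treatment was a gap of -1.74 with vehicle. The same division held for the DNAJ genes Dnajb5 and Dnaja3 and for the mitochondrial chaperones Hspa9 and Trap1, whose vehicle gaps of -1.14, -1.09, -1.01 and -0.58 were larger than their treated gaps of -0.94, -0.67, -0.78 and -0.34. Of these vehicle gaps that of Trap1 was 0.095 by library size alone, while the others stayed below 0. Hspa1b had -1.49 of its -1.83 with vehicle, and Fkbp4 had a vehicle gap of -0.49 (0.18 by library size alone) and a treated gap of -0.45. Unc45b and Hspd1 held both terms in about equal parts, -0.73 and -0.74 for Unc45b, and -0.62 and -0.77 for Hspd1, where by library size alone the vehicle gaps were -0.054 and 0.052.

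**Figure D3:**
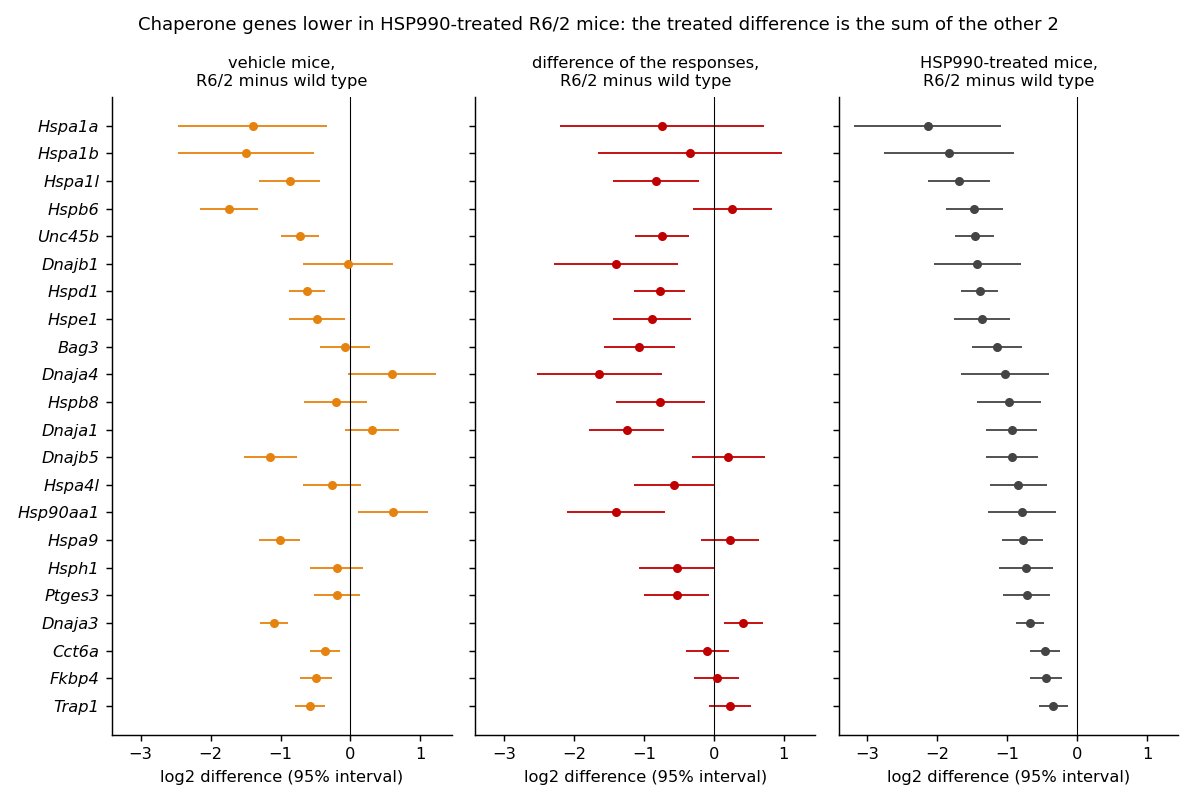
For the 22 chaperones called lower in treated R6/2 than treated wild type mice, the log2 gap between vehicle groups (left), the log2 difference of responses (middle) and their sum, the gap after treatment (right), all with TMM, each with its 95% interval. Hspb6, Hspa9, Dnaja3 and Trap1 have a negative vehicle gap and a difference of responses above 0, while Dnajb1 and Bag3 have a vehicle gap near 0 and a difference of responses below -1.

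Over all genes, 1313 were called between the treated groups, 585 higher and 728 lower in R6/2 mice (5833 and 205 by library size alone), and 993 of them (75.6%) were also called between the vehicle groups, 991 in the same direction. The study set apart effects of treatment by subtracting a called vehicle difference and asking for a minimum remaining fold, and that rule applied to these calls left 629 genes, 281 lower and 348 higher in R6/2 mice. Of the 629, 179 had an unadjusted p under 0.05 by edgeR in the difference of responses, against 981 of all 13754 genes. The 629 were chosen on values that make up the difference, so a share above that of all genes was built in.

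The HSP990 responses were also read over the genes that a heat shock raised in wild type mice, chosen in heat shock mice outside this comparison. That choice rested on the wild type genotype alone, and in R6/2 mice a heat shock raised 6 genes. The wild type set held 219 genes, and 186 had a negative difference of HSP990 responses, with a median of -0.615 against -0.001 over all genes. Without R6/2 vehicle mouse 2 that median was -0.352. HSP990 raised 45 of them in wild type and 30 in R6/2 mice, and lowered 16 in wild type and 63 in R6/2 mice. The 21 chaperones among them all rose with HSP990 in wild type mice and 18 rose in R6/2 mice. The median rise over these 21 was 2.01 with the wild type genotype. In R6/2 mice it was 1.32, or 65.6% of the former, with 52.3% in treated mouse 1 and 68.2% in treated mouse 2, and 19 of 21 differences were negative. The other 198 genes had a median response of -0.225 in wild type and -0.734 in R6/2 mice, and no share was formed for them.

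Targets of HSF1 other than chaperones were also lower in the R6/2 response. All 10 of those tested had a negative difference, with a median of -1.247, and 5 had an unadjusted p under 0.05 (4.78% of all genes with a lower response), although Mt1 and Mt2, which are also counted below as glucocorticoid targets, went down in both genotypes. Zfand2a, a ubiquitin-binding protein of arsenite and heat stress, rose from 22.3 and 18.1 CPM to 56.8 and 59.2 CPM in wild type mice and was at 21.97 and 24.4 CPM and 30.5 and 38.3 CPM in R6/2 mice. Hmox1, heme oxygenase 1, rose from 24.8 and 17.3 CPM to 87.8 and 73.6 CPM in wild type mice and was at 11.5 and 13 CPM and 18.2 and 21.2 CPM in R6/2 mice. For both genes every treated wild type mouse lay above every R6/2 mouse, and the R6/2 response was not called. The differences were -0.95 (-1.53 to -0.37) and -1.25 (-1.93 to -0.58, DESeq2 adjusted p = 0.0521). The response of Hsf1 itself differed little, by 0.19 (-0.19 to 0.56), with 52.9 and 56.6 CPM in treated wild type and 50.6 and 45.3 CPM in treated R6/2 mice. Between the vehicle groups Hsf1 was called lower in R6/2 mice with TMM, where 10.5% of all genes were.

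Genes of the extracellular matrix moved apart between the genotypes as a group. Of 34 tested, 33 had a negative difference of responses and 13 an unadjusted p under 0.05, against 4.78% of all genes with a lower response at that p, and the responses of the treated mice did not overlap, R6/2 below wild type, for 29, against 26.8%. The median response of the list was 0.780 in the wild type mice but -0.024 in R6/2 mice, although only 2 of the 34 rose by the adjusted test in wild type mice, and 1 fell in R6/2 mice. The fall was that of Eln, which encodes elastin: 21.4 and 26.9 CPM and 19.1 and 24.9 CPM in vehicle and treated wild type mice, against 23.7 and 41.4 CPM and 9.15 and 7.57 CPM in R6/2 mice. Treated R6/2 mice were the lowest of the 4 groups, and the difference was -1.82 (-2.57 to -1.08, DESeq2 adjusted p = 0.0018). Lamc1, a laminin chain of the basement membrane, rose from 202 and 176 CPM to 288 and 311 CPM in wild type mice and was at 173 and 203 CPM and 205 and 164 CPM in R6/2 mice. Of the 17 genes that fold and crosslink collagen, 4 rose in wild type and 2 in R6/2 mice, the collagen chaperone Serpinh1 from 87.2 and 70.9 CPM to 599 and 581 CPM in wild type and from 77.95 and 64.9 CPM to 273 and 269.6 CPM in R6/2 mice. P4ha1, a collagen prolyl hydroxylase subunit, reached 115 and 105 CPM in treated wild type and 88.4 and 91.9 CPM in treated R6/2 mice, a difference of responses of -0.57 (-1.03 to -0.12).

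Macrophage genes showed the same direction. Lyz2, the lysozyme of macrophages, was at 21.5 and 19.7 CPM in vehicle and 40.8 and 45.7 CPM in treated wild type mice, and at 46.6 and 26.4 CPM and 24.2 and 25.4 CPM in R6/2 mice. Both treated wild type mice lay above their vehicle mice and both treated R6/2 mice below theirs, and the difference of -1.63 (-2.35 to -0.91) had a DESeq2 adjusted p of 0.0076. C1qa, a chain of complement C1q, was at 13.97 and 24.1 CPM in treated wild type and 10.8 and 11.8 CPM in treated R6/2 mice, from 10.8 and 10.8 CPM and 17.7 and 17.99 CPM with vehicle (DESeq2 adjusted p of the difference 0.0216). The chemokines Ccl6 and Ccl9 hardly moved in wild type mice, by 0.04 and 0.26, and fell by 2.06 and 1.82 on the log2 scale in R6/2 mice, differences with DESeq2 adjusted p of 0.0132 and 0.00317. Ccl9 was at 6.603 and 10.4 CPM in vehicle and 2.33 and 2.48 CPM in treated R6/2 mice.

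Macrophages and fibroblasts, which make much of these RNAs, lie between the muscle fibres. The 11 macrophage and leukocyte markers summed to 56.4 and 57.5 CPM in vehicle and 85.0 and 119 CPM in treated wild type mice, and to 109 and 76.8 CPM in vehicle and 61.8 and 68.5 CPM in treated R6/2 mice, with Cd3e and Cd79a at 0 in some libraries. Of these markers 10 had a negative difference of responses, with a median of -1.23. The 8 fibroblast markers summed to 681 to 701.5 CPM in vehicle and 968 to 1000.0 CPM in treated wild type mice, and to 731 to 884 CPM and 747 to 759 CPM in R6/2 mice, and all 8 differences were negative. The 8 endothelial markers, summing to 441 to 717 CPM in all 8 mice, had 5 negative and 3 positive differences. In muscle RNA of this kind fewer cells of a type and less RNA in each cell cannot be told apart, and the part of such cells in the matrix and macrophage results was not tested.

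**Figure D4:**
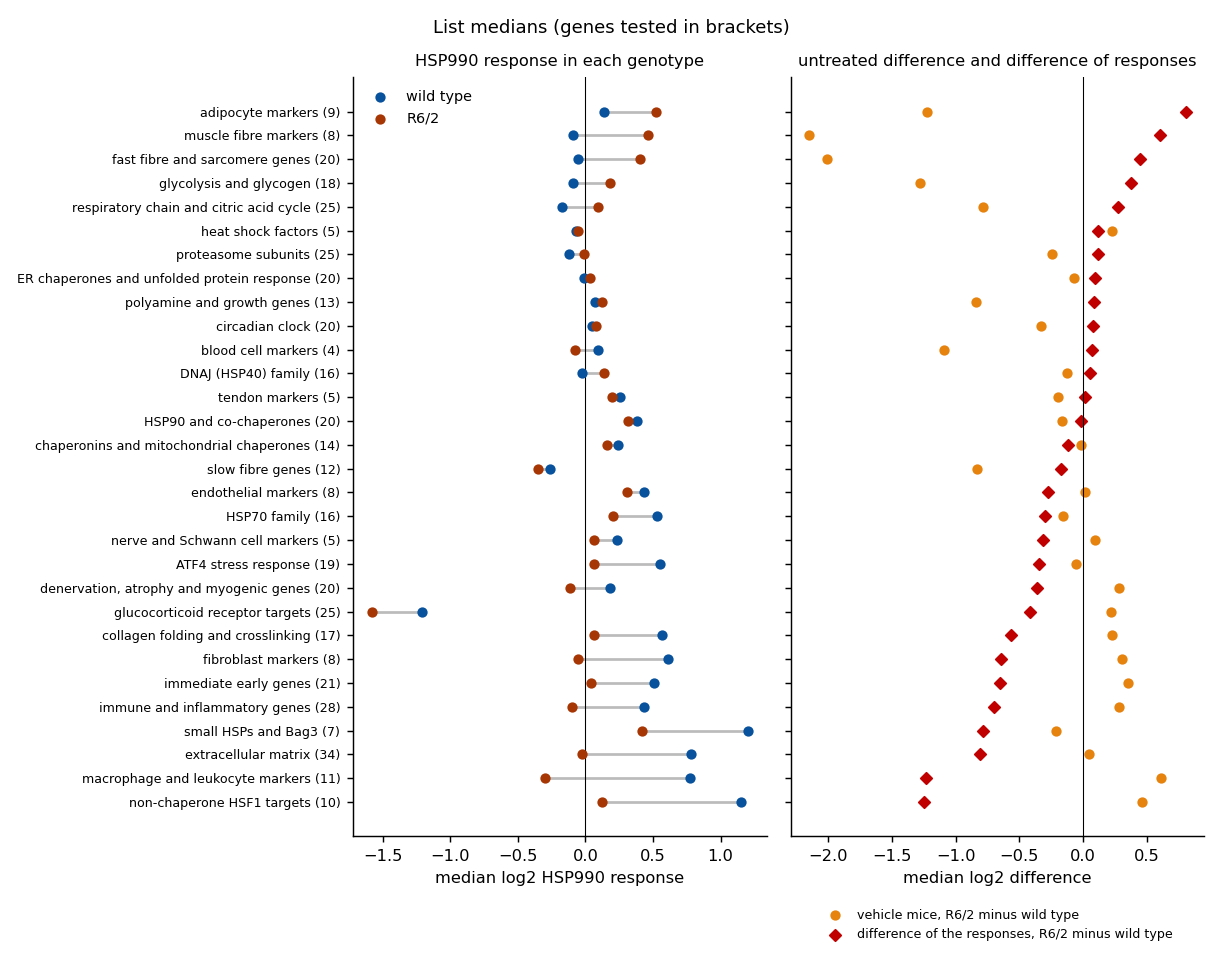
Median log2 HSP990 response of each gene list in wild type and R6/2 mice (left), and its median log2 vehicle gap and median log2 difference of responses (right), with the number of genes tested in brackets. Matrix, macrophage and non-chaperone HSF1 target lists have wild type medians above and differences well below 0, and the glucocorticoid target list has both medians below -1.

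Targets of the glucocorticoid receptor fell in both genotypes. Of 25 tested, 6 fell in wild type and 15 in R6/2 mice and 0 rose in either, where 0.407% and 0.96% of all genes fell, and the medians were -1.21 and -1.58. The difference of responses was negative for 17 and positive for 8, with a median of -0.413 against -0.001 over all genes. At an unadjusted p under 0.05 by edgeR 5 were lower and 0 higher, against 4.78% and 2.35% of all genes. Responses of treated mice did not overlap, R6/2 below wild type, for 12 and above for 2, against 26.8% and 25.7%. With vehicle 5 were called higher and 1 lower in R6/2 mice, against 8.72% and 10.5%. Fkbp5, a feedback inhibitor of the receptor, went from 98.4 and 372 CPM to 22.2 and 17.1 CPM in wild type and from 301 and 246 CPM to 12.4 and 34.4 CPM in R6/2 mice. All treated mice lay below all vehicle mice, and the falls of 3.58 and 3.54 on the log2 scale differed by 0.04 (-1.84 to 1.92), an interval too wide to show equality. Ddit4, an inhibitor of mTORC1 induced by stress hormone, was at 50.2 and 281 CPM in vehicle and 4.99 and 7.09 CPM in treated R6/2 mice and at 16.3 and 30.98 CPM and 3.94 and 5.81 CPM in wild type mice. Treated mice of both genotypes were alike and vehicle mice were not, and the difference of -2.51 had an interval of -5.04 to 0.02. Cdkn1a, a cell cycle inhibitor, was at 148 and 342 CPM in vehicle and 35.2 and 42.5 CPM in treated R6/2 mice, and at 14.9 and 39.2 CPM and 15.3 and 13.98 CPM in wild type mice. It fell by the adjusted test in R6/2 mice and stayed above the treated wild type mice. Vehicle mouse 2 of each genotype stood high for several targets, Mt2 among them at 14.8 and 49.6 CPM in the wild type and 10.3 and 105 CPM in the R6/2 vehicle mice. Without R6/2 vehicle mouse 2 the count of R6/2 calls was 50, and without wild type vehicle mouse 2 the count of wild type calls was 59.

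Genes of fast fibres and energy metabolism were mostly lower in R6/2 muscle before treatment, and 0 of their responses to HSP990 were called. All 20 fast fibre and sarcomere genes were called lower in vehicle R6/2 mice, with a median of -2.01. By the adjusted test 0 of them responded to HSP990 in either genotype. Among all genes 1.45% rose and 0.407% fell in wild type mice, and 0.473% and 0.96% in R6/2 mice. With shares that low, 0 of 20 does not show that none responded. Of 25 genes of the respiratory chain and citric acid cycle 22 were called lower with vehicle, and of 18 of glycolysis and glycogen 15 were. By library size alone these counts were 17, 7 and 10, and the vehicle gap was below 0 for all 20 fast fibre genes, 18 of the 25 and 13 of the 18. In the first 2 lists every difference of responses was positive, with medians of 0.446 and 0.272, the opposite sign to the vehicle gap, with which it shares the vehicle mice. Of the 18 glycolysis genes 13 were positive and 5 negative, with a median of 0.373. Responses of treated mice did not overlap, R6/2 above wild type, for 10, 21 and 13 genes of the lists in turn, against 25.7% of all genes. The reverse held for 0, 0 and 3, against 26.8%. All 25 respiratory chain responses were negative in wild type mice, and 22 were positive in R6/2 mice. All 20 fast fibre responses were positive in R6/2 mice. At an unadjusted p under 0.05 by edgeR 7 fast fibre, 0 respiratory chain and 6 glycolysis genes rose there, and 0, 0 and 1 fell. Of all 13754 genes 645 rose and 661 fell at that p. Ckm, muscle creatine kinase, was at 6425 and 8226 CPM in vehicle and 14466 and 8688 CPM in treated R6/2 mice, and mouse 1 of the treated pair gave most of that rise. Without it the median over fast fibre genes was 0.097. Sdha, a subunit of succinate dehydrogenase and a reference gene in the study, was at 686 and 778 CPM and 854 and 864 CPM in R6/2 and 1513 and 1566 CPM and 1406 and 1052 CPM in wild type mice, with a difference of 0.56 (0.15 to 0.96). The other reference genes Atp5b, Actb and Ywhaz had differences of 0.22, -0.07 and -0.00, whose intervals held 0, with reads of Ywhaz uncertain because of a near-identical copy.

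Some genes moved in opposite directions or had a higher response in R6/2 mice. In all genes tested, both treated wild type mice rose above the mean of their vehicle mice and both treated R6/2 mice fell below theirs in 8.23%, and the reverse was seen in 9.87%, so that the pattern alone was common. Slc29a2, a nucleoside transporter, was at 13.2 and 13.5 CPM and 13.2 and 11.2 CPM in wild type mice and rose from 5.09 and 3.102 CPM to 13.1 and 12.7 CPM in R6/2 mice. Treated R6/2 mice reached the wild type level from a lower vehicle level, with a difference of 1.78 (1.09 to 2.48, DESeq2 adjusted p = 0.0018). Kazald1, a secreted protein with an IGF-binding domain, was at 5.42 and 11.8 CPM and 1.95 and 2.53 CPM in wild type and at 5.87 and 4.09 CPM and 16.98 and 15.02 CPM in R6/2 mice, so that it was lower after HSP990 in the one and higher in the other. The difference was 3.62 (1.90 to 5.34, DESeq2 adjusted p = 0.00333), while neither response was called alone. Tuba8, an alpha tubulin of muscle, had responses of -0.43 in wild type and 0.40 in R6/2 mice, a difference of 0.83 (0.42 to 1.23, DESeq2 adjusted p = 0.0304). Tbx15, a transcription factor of fast glycolytic fibres, had responses below 0 in both, -0.81 and -0.21, and a difference of 0.60 (0.31 to 0.89, DESeq2 adjusted p = 0.0076). Mest, an imprinted gene of the hydrolase family, rose from 1.86 and 1.82 CPM to 18.6 and 19.5 CPM in wild type mice and was at 4.89 and 9.28 CPM and 12.7 and 11.4 CPM in R6/2 mice. Its vehicle level was higher in R6/2 mice, and the difference was -2.60 (-3.99 to -1.21, DESeq2 adjusted p = 0.0219). Mest shares up to 904 exon bases with Copg2 and Tuba8 up to 368 with Gm15856, both on the opposite strand.

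**Figure D5:**
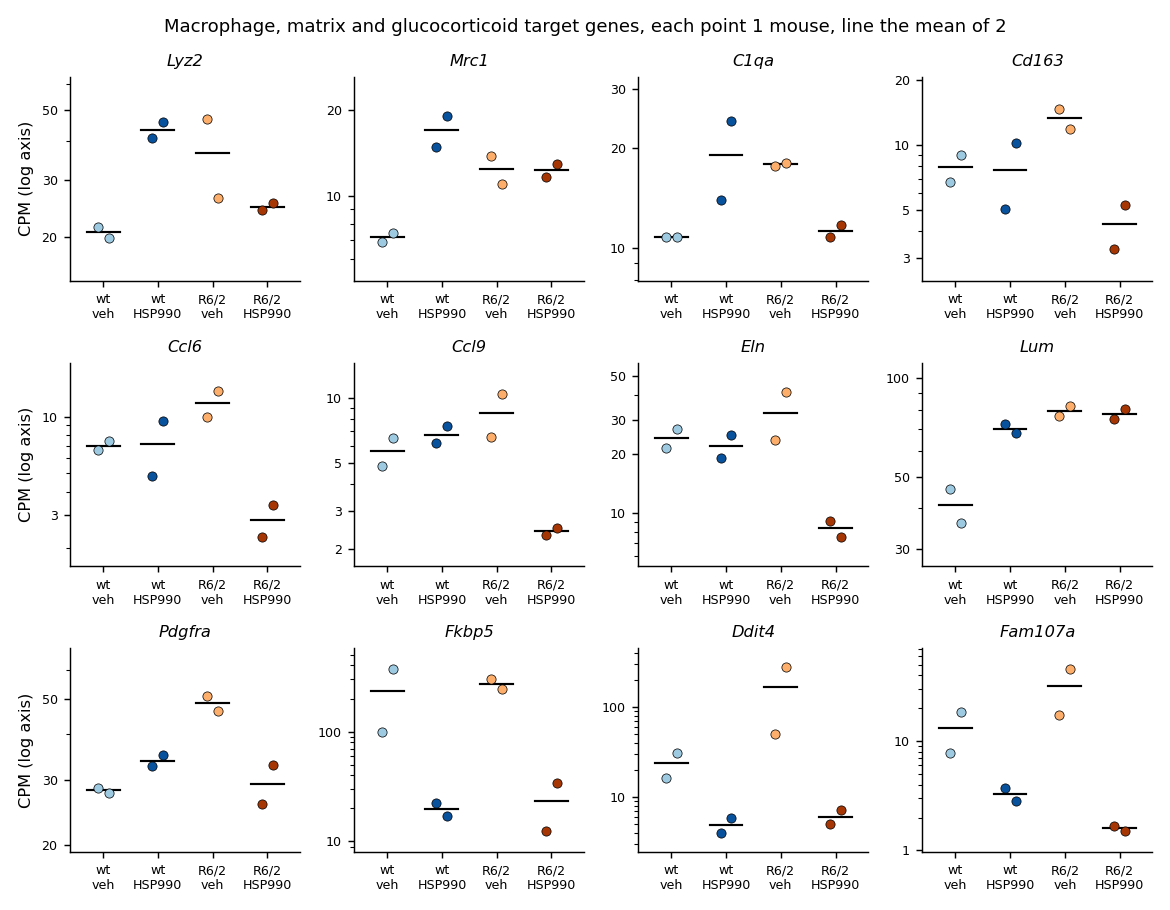
CPM (log axis) of macrophage, matrix, fibroblast and glucocorticoid target genes in each of the 8 mice, with 2 points and a line at their mean in each group. Lyz2 and Mrc1 are higher in treated than in vehicle wild type mice, Ccl6, Ccl9 and Eln are lowest in treated R6/2 mice, and Fkbp5 is below 40 CPM in all 4 treated mice.

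Whether the genotype difference under HSP990 was unlike that under heat shock was tested as the difference of both differences. By edgeR 655 of 13754 genes had an unadjusted p under 0.05 and 0 were called, with a lowest adjusted p of 0.985 (DESeq2 called 2). Of 20 genes of the unfolded protein response of the endoplasmic reticulum 1 rose in wild type and 0 in R6/2 mice, and of 25 proteasome subunits 0 changed in either. Among all genes 1.45% rose and 0.407% fell in wild type mice, and 0.473% and 0.96% in R6/2 mice, so these counts say little about either list. Of 28 immune genes 21 and of 21 immediate early genes 19 had a negative difference, against 6896 of all 13754 genes, with medians of -0.695 and -0.649. Jund, an AP-1 subunit, was at 55.3 and 54.8 CPM and 92.6 and 141 CPM in wild type and 157 and 137 CPM and 113 and 141 CPM in R6/2 mice, with a difference of -1.29 (-1.97 to -0.62, DESeq2 adjusted p = 0.0318) and up to 543 exon bases shared with Gm11175 on the opposite strand.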

How the data were processed

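RNA of the quadriceps femoris of 24 mice in 12 groups of 2 was sequenced by the authors from strand-specific paired-end libraries and mapped to mm9 with Bowtie, and the deposited values are raw gene counts for 18669 genes, without normalization. The counting program, its annotation and its use of strand are not given in the sources used here. The filter of the study, which asks for 2 or more counts in 10 or more libraries, left 13754 genes to test. One model was fitted over all 12 groups (12 residual degrees of freedom) with edgeR 4.0.16 (TMM, quasi-likelihood test) in R 4.3.3, and p-values were adjusted by Benjamini-Hochberg within each comparison at 0.05. DESeq2 1.42.0 was an alternative, beside RLE factors, library size only, both filters, the compared libraries alone, a replicate block and leaving out each mouse. The difference of responses is a contrast of that model. Responses of single mice are log2(CPM + 0.5) minus the mean of the 2 vehicle mice. With 2 mice a group an exact permutation test cannot go below 0.333, so none was used. Nothing in the labels says more of how mice were paired or housed, so the p-values measure the spread between these mice.

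Genes were matched to symbols by NCBI gene ID (18594 of 18669), and positions (mm9, GENCODE) by symbol, for 12280 of the genes tested. Near-identical copies were searched with minimap2 2.31-r1302. Promoters came from RefSeq (GRCm38.p6) and 10838 of the genes tested had one. The columns compared and the 33 lists, among them the markers of cell types, were chosen with earlier results of these data known. Genes were named by a rule set with the lists: the 20 with the lowest p in the difference and a mean of at least 1 CPM, the genes the study measured by qPCR, up to 4 members of each list per comparison by size, and the 10 largest rises and falls of each response. The fit was tested on simulated data.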

Additional observations from a re-analysis of the deposited data

How the results depend on the processing

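The difference of responses was called for 49 genes by DESeq2 on the 24 libraries and for 92 on only the 8 libraries compared, and for 0 to 10 by edgeR with a mouse left out. The 10 came without R6/2 vehicle mouse 1, with 0 called under each other omission, under RLE factors, library size only, both filters, only the libraries compared and the replicate block. The wild type response held 158 genes with only its own libraries, 542 and 670 by DESeq2 on the 24 and on its own libraries, and 59 to 168 with a mouse left out (59 without wild type vehicle mouse 2, 102 without wild type HSP990 mouse 2, 117 without wild type HSP990 mouse 1 and 168 without wild type vehicle mouse 1). The R6/2 response held 8 with only its own libraries, 376 and 413 by DESeq2, and 50 to 228 with a mouse left out (50 without R6/2 vehicle mouse 2, 61 without R6/2 HSP990 mouse 1, 75 without R6/2 HSP990 mouse 2). The count between the vehicle groups was 7652 with library size only (7363 higher and 289 lower in R6/2 mice, against 1200 and 1438 with TMM) and 1365 to 1744 with a mouse left out. Between the treated groups it was 6038 with library size only (5833 higher and 205 lower, against 585 and 728 with TMM), 601 with only the libraries compared and 319 to 747 with a mouse left out. The test of the difference against that under heat shock called 2 and 3 genes by DESeq2. The cause of these changes was not tested beyond the fewer samples fitted. A group left with 1 mouse was assumed to vary like the other groups.

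The median difference over the 219 genes that a heat shock raised was -0.813 with library size only and -0.411 by DESeq2 on only the libraries compared, and ranged from -0.838 to -0.352 with a mouse left out. The share of the response kept by chaperones, a measure chosen after the data were seen in place of a ratio over all 219 genes whose wild type median was near 0, ranged from 52.0% to 69.9%. Of the 146 named genes 25 changed the sign of their difference with a mouse left out, 0 of them called by DESeq2 on the 24 libraries or by edgeR, and 17 of the 25 had a difference within its SE on all mice. The other 8 were the following: Trim63 ranged from -1.08 to 0.078, Tfcp2l1 from -0.103 to 1.67, Map3k6 from -2.34 to 0.405, Car3 from -0.298 to 1.42, Irf7 from -2.59 to 0.289, Arrdc2 from -0.188 to 1.81, Ppp1r3c from -0.037 to 1.72 and Ifit1 from -1.66 to 0.049.

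With the replicate number of the labels as a replicate block the counts were 0 for the difference, 222 for wild type, 176 for R6/2, 2518 between vehicle groups and 1235 between treated groups, and the share kept was 65.5%. The numbers were not taken to pair the mice: deviations of equal-numbered mice correlated at 0.228 across 11124 genes between vehicle and treated wild type mice and at -0.0779 between those of R6/2 mice, and genes are not independent replicates.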

Other observations

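A few genes were near 0 in some mice of a group and clearly expressed in others, chosen after their values were seen. Rps2, Rps18 and Hmga1, which code for ribosomal proteins and a chromatin protein and lie within chr17:24855061-34092946 (mm9), and AA388235 divided the 24 mice alike: 16 mice were at 1 CPM or more for Rps18 and 8 below. Rps2 was at 38.4 to 142 CPM in the former and at 0.0414 to 0.188 CPM in the latter. Of the 8 mice of the HSP990 comparison 3 were in the high class, namely R6/2 vehicle mouse 1, R6/2 HSP990 mouse 1 and wild type HSP990 mouse 2. Over all genes, 33 differed at least 30-fold between the mice of at least 2 groups with 1 CPM or more in the higher mouse, and 103 did so in at least 1 group. The inducible HSP70 genes, at chr17:35093381-35109069, did not show such a split in the 8 mice. Hspa8, the constitutive HSP70, differed between the mice of a group without being near 0 in any: it was at 126 and 101 CPM in vehicle and 108 and 400.4 CPM in treated wild type mice, and at 287 and 111 CPM in vehicle and 83.3 and 334 CPM in treated R6/2 mice.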
